A study of Mus musculus with 8 samples.

Results

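The enzymes of homocysteine and one-carbon metabolism were followed in mouse kidney through 9 genes: Mat2a, Gnmt, Ahcy, Bhmt, Bhmt2, Dmgdh, Cbs, Cth and Shmt1. The members were every non-control array probe that the scanner files name for 1 of these genes, 14 probes in all, out of 56601 probes with 36868 gene names. RNA came from whole kidney of male mice aged 20 weeks, in 4 groups of 2 samples each. The mimic group were db/db mice (C57BLKS/J Iar -+Leprdb/+Leprdb) given nanoparticles, labelled PEI, that carried a mimic of miR-181b-5p. The control miRNA group were db/db mice of that strain given PEI nanoparticles with a control miRNA. The untreated db/db group had the same genotype and no nanoparticles, and the normal group were m/m mice (C57BLKS/J Iar -m+/m+). All 3 db/db groups therefore lacked the long form of the leptin receptor in every tissue and from birth, a state that leads to obesity and diabetes. The labels do not say how much of the nanoparticles was given, by which route or how often. The 9 genes were chosen by function together with measured values, the differences of Bhmt and its neighbours in the pathway between db/db and normal kidney in these same samples. Their values against normal kidney are therefore given as a description, with no p-value, and counts of member probes past a threshold there stand only beside the share over all probes.

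Homocysteine stands at a branch of sulfur metabolism. Methionine is activated to S-adenosylmethionine, the methyl donor of the cell, and what is left after methyl transfer is split into adenosine and homocysteine. Homocysteine is either methylated back to methionine, with the methyl group taken from betaine or from folate, or condensed with serine and passed on to cysteine. The folate cycle takes its carbon from serine and glycine. Liver and kidney carry most of this metabolism, in kidney mainly in the proximal tubule.

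Values are levels on a log2 scale, in which 0 is the 75th percentile of the signals of that array, so a difference of 1 is a factor of 2. Levels of different probes are not set against each other, because probes differ in how strongly they bind. The fits used probes whose signal was called well above background in both samples of some group. This kept 33639 probes, and 13 of the 14 member probes, and these 13 were called so in all 8 samples. The remaining probe was Bhmt A_55_P2103969, which was well above background on 1 array, that of untreated db/db replicate 1. A probe passed if its p-value from limma, adjusted by Benjamini-Hochberg over all 33639 probes, was under 0.05. The labels do not say that the 2 samples of a group came from separate mice, so p-values measure the spread between samples, which may be in part technical. An exact permutation test of 2 samples against 2 cannot give a two-sided p below 0.333, so none was used.

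From 56.5% to 62.5% of the spots on an array were called above background, and 0 spots were saturated. Replicates correlated at r = 0.976 in the mimic group and between 0.991 and 0.996 in the others. All 8 arrays lay on 1 slide, the nanoparticle groups in row 2 and the untreated and normal groups in row 1, so row and nanoparticles cannot be told apart. The mimic and untreated groups took columns 3 and 4, and the control miRNA and normal groups columns 1 and 2. Lepr, the leptin receptor gene, averaged 2.76 ± 0.27 in mimic, 2.81 ± 0.18 in control miRNA, 2.88 ± 0.02 in untreated db/db and 3.65 ± 0.04 in normal kidney (SD, n = 2 each, brightest probe). The kidney markers were present: all 12 proximal tubule genes and all 7 genes of the other nephron segments were kept. Summed linear levels of markers, in multiples of the array's 75th percentile, differed between samples. The proximal tubule sum was 1171 in mimic replicate 1 and 1920 to 2368 in the other 7 samples. The red cell sum of 3 genes was 257 and 5.25 in mimic, 184 and 80.1 in control miRNA, 126 and 191 in untreated db/db, and 7.12 and 14.3 in normal kidney. The adipocyte sum of 8 genes was 107 in normal replicate 1 and 13.8 to 19.1 elsewhere, where it was mostly Fabp4. Cfd read -1.12 and -3.37 in mimic, 1.22 and -3.51 in control miRNA, -4.51 and -5.18 in untreated db/db, and 5.81 and 1.65 in normal kidney. Adipoq, Cidec and Retn read highest in normal replicate 1, with control miRNA replicate 1 next. Lep, Plin1, Cidea and Fabp4 did not follow that order. The urothelium sum of 6 genes was 18.1 in normal replicate 1 and 1.41 to 8.99 elsewhere. The leukocyte sum of 6 genes was 64.5 in mimic replicate 1, 18.6 to 24.2 in the other db/db samples, and 40.2 and 39.3 in normal kidney, with Cd79a below background on every array. In mimic replicate 1 that sum was mostly Lyz2, which read 5.55 there and 2.36 to 3.63 elsewhere. Cd68 was also highest there, at 0.14, while Cd3e was lowest there, at 0.59. Csf1r, at 3.61, lay between the other db/db samples and normal kidney, and Ptprc, at 1.44, below both normal samples. The hepatocyte sum of 9 genes was 156 to 220 in all samples, with Apoa1 and Ahsg below background throughout, and was made up mostly of Serpina1a. Some of its other genes moved with the groups: Alb read -0.48 and 1.73 in mimic, 1.11 and 0.89 in control miRNA, 1.31 and 1.68 in untreated db/db, and 0.06 and 0.09 in normal kidney. Ttr read -1.85 to -0.59 in db/db and -3.99 and -4.24 in normal kidney, and Fgb 5.36 in mimic replicate 1 and at most -1.68 elsewhere. The part of these cell types in the enzyme differences was not tested. In whole tissue, fewer cells of a type and less RNA per cell cannot be told apart.

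Bhmt, betaine-homocysteine methyltransferase, moves a methyl group from betaine to homocysteine and so makes methionine and dimethylglycine. Its brightest probe, A_55_P2714597 (chr13:94386862-94386921, minus strand, mm9), read 4.31 and 5.12 in mimic, 4.53 and 3.62 in control miRNA, 5.06 and 4.92 in untreated db/db, and 2.30 and 1.37 in normal kidney. All 6 db/db samples lay above both normal samples, and the 2 normal samples were themselves 0.93 apart. Against normal, the difference was 2.88 in mimic, 2.24 in control miRNA and 3.15 in untreated db/db (SE 0.45 each), which are 7.35, 4.71 and 8.89 times the normal level. No other member moved as far from normal kidney. When 1 array at a time was left out, the difference in untreated db/db ranged from 2.69, without normal replicate 2, to 3.62, without normal replicate 1.

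A further Bhmt probe, A_55_P2103963, gave the same picture at a lower signal. Its sequence is shown because it reads the end of the coding sequence, with the stop codon in capitals, in the sole frame without an earlier stop.
Bhmt A_55_P2103963: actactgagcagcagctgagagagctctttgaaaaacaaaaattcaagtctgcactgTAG
The array annotation places only 5 bases of it on mm9, at chr13:94386836-94386840. It read 1.26 and 2.09 in mimic, 1.36 and 0.56 in control miRNA, 1.84 and 1.85 in untreated db/db, and -0.79 and -1.65 in normal kidney. Relative to normal it was higher by 2.89 in mimic, 2.18 in control miRNA and 3.06 in untreated db/db (SE 0.42 each). The order of the 2 samples within the mimic, control miRNA and normal groups was the same on both probes, and in untreated db/db the samples were 0.14 apart on the brighter probe and 0.01 apart on this one. The third Bhmt probe, A_55_P2103969 at chr13:94395097-94395156, read -6.17 and -4.45 in mimic, -5.13 and -5.04 in control miRNA, -4.34 and -4.53 in untreated db/db, and -5.16 and -5.34 in normal kidney. Nearly all of these readings are at background, and no fold is given for them.

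**Figure D1:**
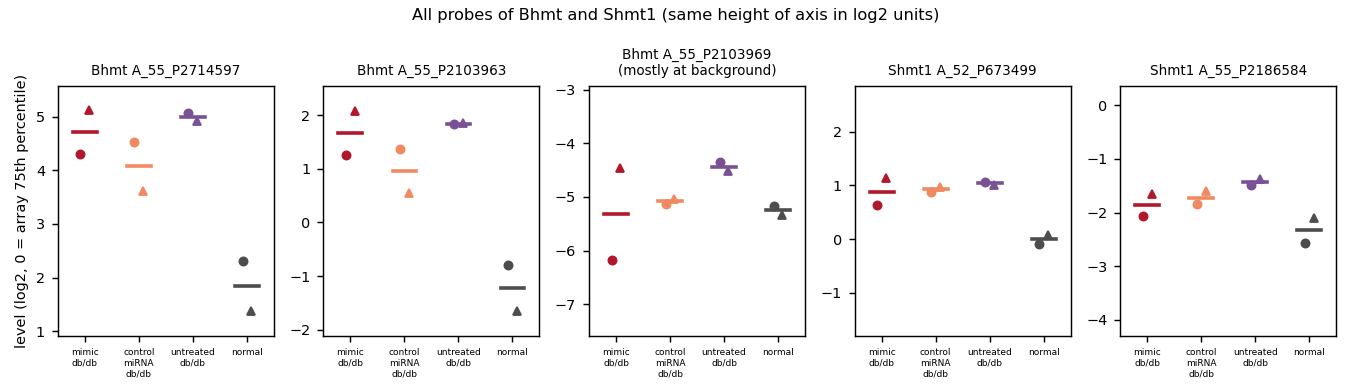
Levels on a log2 scale (0 is the 75th percentile of the array) of the 3 Bhmt and 2 Shmt1 probes in the 4 groups. Circles are replicate 1, triangles replicate 2 and lines the mean of 2, and every panel spans the same number of log2 units. On both Bhmt probes above background the 6 db/db samples lie above the 2 normal samples, while Bhmt A_55_P2103969 is mostly at background.

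The sequence before the Bhmt start is shown because Bhmt differed most from normal kidney, and because it holds 3 copies of AGGTCA, in capitals, the half-site bound by many nuclear receptors. It is the RefSeq window of 250 bases, GRCm38.p6, chr13:93637759-93638008, minus strand.
Bhmt upstream: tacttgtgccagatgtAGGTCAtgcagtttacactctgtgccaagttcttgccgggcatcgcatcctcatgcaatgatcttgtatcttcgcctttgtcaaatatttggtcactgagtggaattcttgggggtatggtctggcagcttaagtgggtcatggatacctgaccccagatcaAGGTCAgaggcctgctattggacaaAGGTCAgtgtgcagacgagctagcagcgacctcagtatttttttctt
Of 32851 mouse windows of this length, searched on both strands, 14.0% held AGGTCA at least once and 0.131% held it 3 times or more. Among the other members with a window, Gnmt and Ahcy held it 1 time each and Bhmt2, Cbs, Mat2a, Shmt1 and Dmgdh 0 times. The match describes the letters and no binding was measured. Windows were found for 8 of the 9 members.

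Bhmt2 is the next gene beside Bhmt. In mammals its product methylates homocysteine with S-methylmethionine instead of betaine. It read 4.90 and 4.88 in mimic, 4.66 and 4.76 in control miRNA, 4.76 and 4.90 in untreated db/db, and 4.84 and 5.10 in normal kidney (probe A_51_P321734, chr13:94426379-94426438, minus strand, mm9). The samples of the mimic, untreated and normal groups overlapped, and the control miRNA samples and untreated replicate 1 lay below both normal samples. It differed from normal by -0.08 in mimic, -0.26 in control miRNA and -0.14 in untreated db/db (SE 0.14 each). Its neighbour Bhmt was 3.15 higher in the same untreated db/db samples.

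Dmgdh, dimethylglycine dehydrogenase, is the mitochondrial enzyme that takes the next methyl group from the dimethylglycine that Bhmt makes. It read 3.45 and 4.20 in mimic, 4.09 and 3.98 in control miRNA, 4.04 and 4.21 in untreated db/db, and 3.90 and 4.03 in normal kidney (probe A_51_P273679, chr13:94522517-94522576, plus strand, mm9). The low value was that of mimic replicate 1, and the other 7 samples lay within 3.90 to 4.21. The differences from normal were -0.14 in mimic, 0.07 in control miRNA and 0.16 in untreated db/db (SE 0.25 each). Bhmt2 and Dmgdh start back to back, with 133 bases between their starts. That stretch is shown because the pair share it while their neighbour Bhmt, whose difference from normal was larger, does not; capitals mark GGGCGG, the GC box, found 1 time, and the strand printed is that of Bhmt2 (GRCm38.p6, chr13:93674303-93674435, minus strand).
between Bhmt2 and Dmgdh: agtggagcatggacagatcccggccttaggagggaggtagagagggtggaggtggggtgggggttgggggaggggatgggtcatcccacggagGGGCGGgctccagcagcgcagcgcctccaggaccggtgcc
GGGCGG was present in 32.7% of the 32851 windows of 250 bases, and in 0 copies in that of Bhmt.

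Mat2a encodes the catalytic subunit of the methionine adenosyltransferase of most tissues outside adult liver, which makes S-adenosylmethionine. Its brightest probe, A_51_P500344 (chr6:72382856-72382915, minus strand, mm9), read 6.00 and 6.12 in mimic, 5.99 and 5.97 in control miRNA, 6.22 and 6.14 in untreated db/db, and 6.59 and 6.70 in normal kidney. All 6 db/db samples lay below both normal samples, and samples of 1 group were at most 0.12 apart. The differences from normal were -0.58 in mimic, -0.66 in control miRNA and -0.46 in untreated db/db (SE 0.12 each). The probe A_55_P2737457 (chr6:72383800-72383859) gave -0.51, -0.60 and -0.39 for the same groups (SE 0.13 each). The dimmer probe A_52_P558713 (chr6:72388801-72388860) gave -0.51, -0.60 and -0.74 (SE 0.21 each). All 3 Mat2a probes were thus lower than normal in each db/db group, by 1.31 to 1.67 times.

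Gnmt, glycine N-methyltransferase, uses up S-adenosylmethionine by methylating glycine and is best known from liver. It read 1.02 and 2.20 in mimic, 1.93 and 1.45 in control miRNA, 1.47 and 2.06 in untreated db/db, and 1.95 and 2.38 in normal kidney (probe A_51_P419439, mm9 chromosome 17, 46862894 to 46863042, minus strand). Replicate 2 of mimic and of untreated db/db lay between the 2 normal values, and the control miRNA samples lay under both, 1 of them by very little. It differed from normal by -0.55 in mimic, -0.47 in control miRNA and -0.40 in untreated db/db, each about as large as its SE of 0.42.

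Ahcy, adenosylhomocysteinase, splits S-adenosylhomocysteine and is the direct source of homocysteine. It read 0.46 and 0.92 in mimic, 0.50 and 0.50 in control miRNA, 0.63 and 0.82 in untreated db/db, and 1.06 and 1.38 in normal kidney (probe A_52_P176160, chr2:154891321-154891380, minus strand, mm9). All 6 db/db samples lay below both normal samples. Against normal the difference was -0.53 in mimic, -0.72 in control miRNA and -0.49 in untreated db/db (SE 0.20 each).

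Cbs, cystathionine beta-synthase, joins homocysteine to serine and commits it to cysteine. It read 4.68 and 5.92 in mimic, 5.84 and 5.47 in control miRNA, 5.60 and 5.78 in untreated db/db, and 6.55 and 6.76 in normal kidney (probe A_55_P2078670, chr17:31749593-31749652, minus strand, mm9). All 6 db/db samples lay below both normal samples, and mimic replicate 1 lay lowest. The differences from normal were -1.35 in mimic, -0.99 in control miRNA and -0.96 in untreated db/db (SE 0.39 each), which are levels lower by 2.55, 1.99 and 1.94 times. Without mimic replicate 1 the difference in mimic was -0.73, and without mimic replicate 2 it was -1.98.

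Cth, cystathionine gamma-lyase, carries out the next step, to cysteine. It read 3.58 and 4.62 in mimic, 4.08 and 4.06 in control miRNA, 4.32 and 4.44 in untreated db/db, and 4.13 and 4.36 in normal kidney (probe A_51_P431737, chr3:157557667-157557726, minus strand, mm9). The untreated and normal samples overlapped, while the control miRNA samples lay just under both normal samples and the mimic samples lay on either side of them. Cth differed from normal by -0.15 in mimic, -0.17 in control miRNA and 0.14 in untreated db/db (SE 0.32 each). In the untreated db/db samples Cbs and Cth, which act in sequence, thus differed from normal by -0.96 and 0.14.

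Shmt1, the cytosolic serine hydroxymethyltransferase, passes a carbon from serine to folate and makes glycine. The probes are both shown because they read different stretches of the message and differ in how far they moved; neither has a part marked.
Shmt1 A_52_P673499: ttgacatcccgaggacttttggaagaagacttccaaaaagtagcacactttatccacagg
Shmt1 A_55_P2186584: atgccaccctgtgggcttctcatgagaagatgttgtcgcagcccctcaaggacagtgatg
The probe A_52_P673499 (chr11:60603099-60603158, minus strand, mm9) read 0.63 and 1.15 in mimic, 0.88 and 0.98 in control miRNA, 1.06 and 1.01 in untreated db/db, and -0.09 and 0.07 in normal kidney. Its differences from normal were 0.89 in mimic, 0.94 in control miRNA and 1.04 in untreated db/db (SE 0.19 each), 1.86, 1.91 and 2.06 times the normal level. The probe A_55_P2186584 (chr11:60620453-60620512) read -2.07 and -1.64 in mimic, -1.84 and -1.60 in control miRNA, -1.48 and -1.37 in untreated db/db, and -2.56 and -2.09 in normal kidney. On both probes all 6 db/db samples lay above both normal samples, although on the second probe mimic replicate 1 was nearly level with normal replicate 2. The second probe differed from normal by 0.47 in mimic, 0.61 in control miRNA and 0.90 in untreated db/db (SE 0.22 each).

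The window before the Shmt1 start is shown beside that of Bhmt because these were the members that were higher in db/db kidney, and their windows did not share either of these motifs: Shmt1 held GGGCGG 4 times, in capitals on either strand, and AGGTCA 0 times (RefSeq, GRCm38.p6, chr11:60811266-60811515, minus strand).
Shmt1 upstream: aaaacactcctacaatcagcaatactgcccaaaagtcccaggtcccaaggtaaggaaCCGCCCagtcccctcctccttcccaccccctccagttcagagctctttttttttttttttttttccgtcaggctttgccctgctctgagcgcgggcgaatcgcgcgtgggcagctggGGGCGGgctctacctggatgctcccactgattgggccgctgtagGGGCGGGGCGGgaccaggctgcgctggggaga
GGGCGG occurred 3 times or more in 8.47% of the windows. Cbs and Bhmt2 held it 2 times each, Mat2a 3 times, Ahcy and Dmgdh 1 time each and Gnmt 0 times. Of the other motifs searched, CCAAT was held 1 time each by Bhmt and Shmt1 and by 33.8% of the windows at least once, and TATAAA and CACGTG by neither.

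**Figure D2:**
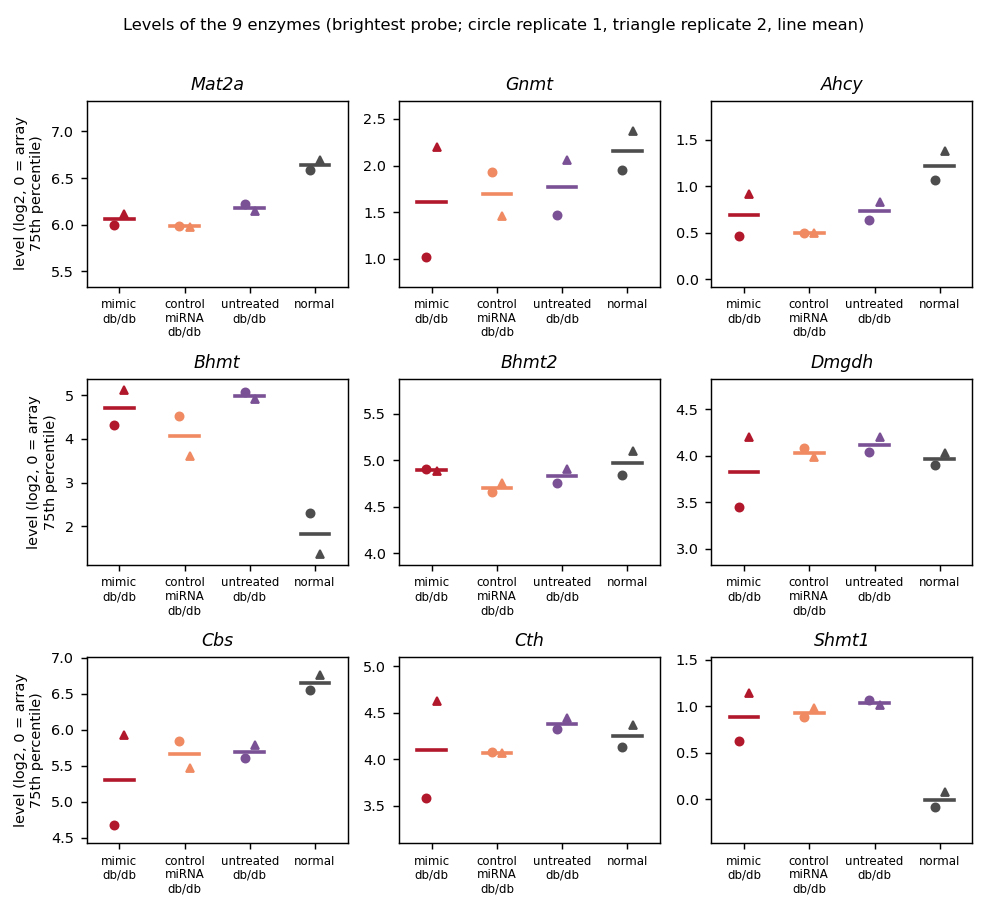
Levels on a log2 scale (0 is the 75th percentile of the array) of the brightest probe of each of the 9 enzymes in the mimic, control miRNA, untreated db/db and normal groups. Circles are replicate 1, triangles replicate 2 and lines the mean of 2; each panel has its own range of the axis. Bhmt and Shmt1 lie higher in all 6 db/db samples than in both normal samples, and Mat2a, Ahcy and Cbs lower.

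Counted over probes, 4 of 13 member probes (2 of Bhmt, 2 of Shmt1) had all 6 db/db samples above both normal samples, beside 14.7% of all probes. The opposite held for 5 of 13 (3 of Mat2a, Ahcy and Cbs), beside 18.8% of all probes. In mimic against normal, 4 of 13 passed, beside 7.37% of all probes: both kept Bhmt probes and Shmt1 A_52_P673499 higher, and Mat2a A_51_P500344 lower. In control miRNA against normal, 0 of 13 passed, beside 1.51% of all probes, and 9 of 13 had an unadjusted p under 0.05, beside 21.9%. In untreated db/db against normal, 3 of 13 passed, beside 3.84% of all probes: both kept Bhmt probes and Shmt1 A_52_P673499, all higher. At an unadjusted p under 0.05 there were 8 of 13 in mimic, beside 29.4% of all probes, and 9 of 13 in untreated db/db, beside 25.8%. The 2 samples of a group did not overlap those of normal kidney for 9 of 13 probes in mimic, 12 in control miRNA and 10 in untreated db/db, beside 53.4%, 59.4% and 63.6% of all probes. The medians over the 13 probes were -0.15, -0.26 and -0.14, and those over all probes -0.06, -0.03 and -0.02. These counts repeat the contrasts in which the members were already known to differ, and nothing is read from them. The 3 comparisons share the normal samples. In a fit of the mimic and normal arrays alone, 0.113% of all probes passed. With 1 array left out, its group is 1 sample, assumed to vary like the others, and the share of all probes moved too. The count for mimic was 0 without either normal array, beside at most 1.27% of all probes, 1 without either untreated array, beside 2.59%, and 2 without either control miRNA array, beside 3.17%. It was 8 without mimic replicate 2, beside 24.9%, and 0 in a fit of the mimic and normal arrays alone. The count for control miRNA was 7 without either mimic array, beside 10.1%. The count for untreated db/db was 0 without any 1 of the 2 normal or 2 untreated arrays, beside at most 0.291%, 2 without either control miRNA array, beside 0.776%, and 7 without either mimic array, beside 14.5%.

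**Figure D3:**
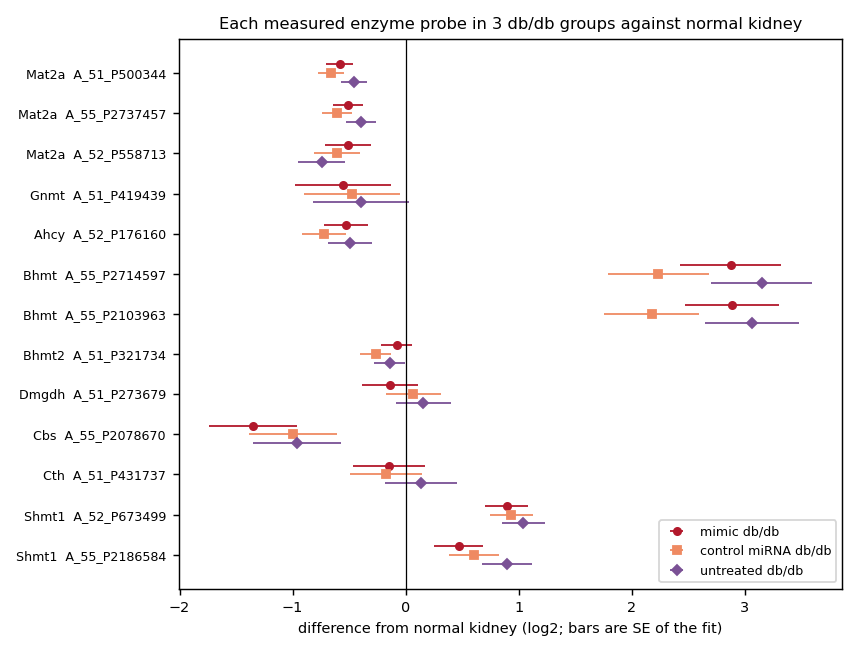
Difference from normal kidney on the log2 scale for each of the 13 kept probes in mimic, control miRNA and untreated db/db kidney; bars are the SE of the limma fit over 4 groups of 2. The Bhmt probes lie between 2.18 and 3.15, those of Shmt1 between 0.47 and 1.04, and those of Mat2a, Ahcy, Gnmt and Cbs left of 0 in every db/db group.

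The effect of the mimic and of the nanoparticles among db/db mice was tested, in contrasts other than those that chose the members. The db/db samples did take part in that choice, through their differences from normal kidney, so these tests are not free of it. No member passed: there were 0 of 13 probes in mimic against control miRNA, mimic against untreated db/db or control miRNA against untreated db/db, beside 0% of all 33639 probes in each. At an unadjusted p under 0.05 the members again gave 0 of 13 in each, beside 9.44% of all probes for mimic against control miRNA, 14.3% for mimic against untreated and 3.71% for control miRNA against untreated. Missing the threshold does not show that levels were alike, and the fit of 2 samples a group leaves wide errors.

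Against the control miRNA, the differences in mimic ran from -0.36 for Cbs (SE 0.39, adjusted p = 0.761 in limma) to 0.71 for Bhmt A_55_P2103963 (SE 0.42, adjusted p = 0.612). The brightest Bhmt probe differed by 0.64 (SE 0.45, adjusted p = 0.647) and the 3 Mat2a probes by 0.08, 0.10 and 0.09. The median over the 13 probes was 0.08, and over all probes -0.03. The 2 samples of each group did not overlap for 2 of 13 member probes, beside 39.5% of all probes.

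Against untreated db/db, the differences in mimic ran from -0.43 for Shmt1 A_55_P2186584 (SE 0.22, adjusted p = 0.421 in limma) to 0.23 for Mat2a A_52_P558713 (SE 0.21, adjusted p = 0.612). The median was -0.16, beside -0.04 over all probes, and groups did not overlap for 2 of 13, beside 47.5%. Without mimic replicate 2, 3 member probes passed in this contrast, beside 16.9% of all probes, and 1 in mimic against control miRNA, beside 12% of all probes. There the mimic arm is 1 sample, assumed to vary like the other groups.

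Against untreated db/db, the differences in control miRNA ran from -0.92 for Bhmt A_55_P2714597 (SE 0.45) to 0.14 for Mat2a A_52_P558713, with an adjusted p of 1.00 for every member in limma. The difference was below 0 for 12 of 13 probes, with a median of -0.20 beside -0.02 over all probes, and groups did not overlap for 9 of 13, beside 40.5%. The share of all probes below 0 was not counted. The 13 probes are of 9 genes, so probes of 1 gene are not separate evidence, and nothing is read from the count. Bhmt was the member with the widest gap here, 4.53 and 3.62 in control miRNA against 5.06 and 4.92 in untreated db/db, and the control miRNA samples were as far apart from each other as the group means were.

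The mature miRNA that the mimic copies is shown with its seed, bases 2 to 8, in capitals (RefSeq, GRCm38.p6, chr1:137966650-137966673, plus strand), above 29 bases of the 1 member probe that holds its complement, TGAATGT, likewise in capitals.
mmu-miR-181b-5p: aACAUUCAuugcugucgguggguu
Mat2a A_55_P2737457: gctctatttatTGAATGTgaagcccctgt
The other 13 member probes did not hold TGAATGT, and 0.809% of all 56601 probes did. Probes cover 60 bases of a message, so the rest of each message was not searched. The Mat2a probe read 5.65 and 5.85 in mimic, against 5.66 and 5.65 in control miRNA, a difference of 0.10 (SE 0.13, adjusted p = 0.813 in limma). The 299 kept probes with TGAATGT had a median mimic minus control miRNA difference of -0.03, and all 33639 kept probes had -0.03.

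The mimic samples lay furthest apart from each other. Of the 13 probes, 3 were more than 2-fold apart between the mimic samples, those of Cbs, Cth and Gnmt, beside 10.3% of all probes. In control miRNA, untreated db/db and normal kidney this held for 0 of 13, beside 1.51%, 0.823% and 3.04%. Replicate 1 was the lower mimic sample for 11 of 13 probes, by 1.25 for Cbs, 1.18 for Gnmt and 1.04 for Cth. In normal kidney replicate 1 was likewise the lower sample for 11 of 13, in untreated db/db for 8 and in control miRNA for 3. The share over all probes was not counted. Mimic replicate 1 also had the low proximal tubule sum and the high leukocyte sum, mostly Lyz2, given above, and their part in its enzyme levels was not tested. Between the mimic samples, Bhmt2 and Mat2a A_52_P558713 were the exceptions, higher in replicate 1 by 0.02 and 0.38.

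**Figure D4:**
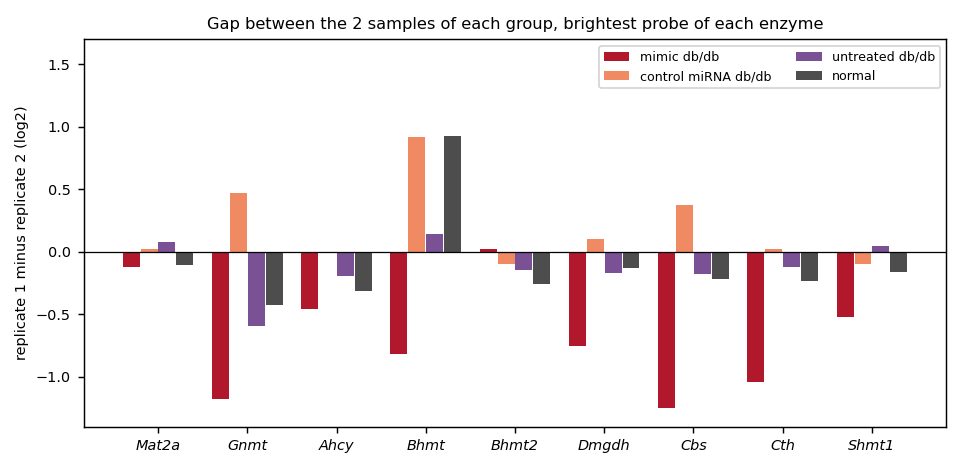
Replicate 1 minus replicate 2 on the log2 scale for the brightest probe of each enzyme, in the mimic, control miRNA, untreated db/db and normal groups. The mimic bars of Gnmt, Cbs and Cth pass -1, and no bar of the other groups goes beyond 0.93 in size.

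The rest of the pathway was taken from a list of 70 gene names in 7 groups, of which 67 had a kept probe, 126 probes in all. Sqrdl is an older name of Sqor, under which the gene was measured, and the probes of Mat1a, the methionine adenosyltransferase of adult liver, and Sds were not kept. In mimic against normal, 10 of 126 probes passed, 7 higher and 3 lower, beside 2.74% of all probes higher and 4.63% lower. In control miRNA against normal, 1 passed, higher, beside 0.574%. In untreated db/db against normal, 3 passed higher and 1 lower, beside 1.43% and 2.41%. Among the db/db groups 0 of 126 passed in each contrast, while 11 had an unadjusted p under 0.05 for mimic against control miRNA, 14 for mimic against untreated and 5 for control miRNA against untreated, beside 9.44%, 14.3% and 3.71% of all probes.

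The counts changed when single arrays were left out, and so did the share of all probes, as given above for some of these fits. In fits of the compared groups alone, the share was 9.31% for untreated db/db against normal and 0.113% for mimic against normal. For untreated db/db the count was 0 without any 1 normal, untreated or control miRNA array, 21 without either mimic array and 13 in a fit of the untreated and normal arrays alone. For mimic it was 1 without normal replicate 2, 2 without normal replicate 1 or any 1 untreated or control miRNA array, 8 without mimic replicate 1 and 33 without mimic replicate 2, and 0 in a fit of the mimic and normal arrays alone. For control miRNA it was 0 without any 1 array outside the mimic group and 15 without either mimic array. Without mimic replicate 2, 18 of 126 probes passed in mimic against control miRNA, beside 12% of all probes, and 24 in mimic against untreated db/db, beside 16.9%.

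In the folate group (21 genes, 40 probes) Ggh rose in every db/db group. Ggh, gamma-glutamyl hydrolase, trims the glutamate tail of folates. It read 2.37 and 2.44 in mimic, 2.25 and 2.25 in control miRNA, 2.42 and 2.48 in untreated db/db, and 1.42 and 1.50 in normal kidney. The db/db samples all lay above the normal samples, by 0.94 in mimic, 0.79 in control miRNA and 0.99 in untreated db/db (SE 0.11 each, adjusted p = 0.00986, 0.0373 and 0.0165 in limma). Tyms, thymidylate synthase, passed in mimic on 1 of its probes, A_55_P2739667, higher than normal by 1.18 (SE 0.23, adjusted p = 0.0379 in limma). This probe read 2.60 and 1.91 in mimic, 1.83 and 1.96 in control miRNA, 1.81 and 1.97 in untreated db/db, and 1.03 and 1.13 in normal kidney. All db/db samples thus lay above both normal samples, with mimic replicate 1 highest. The brightest Tyms probe differed in mimic by 1.14 (SE 0.27) and missed the threshold (adjusted p = 0.0574 in limma). It read 3.53 and 2.69 in mimic, 2.63 to 2.83 in the other db/db samples, and 1.89 and 2.04 in normal kidney. No other gene of the group passed in any contrast, and Slc46a1, the folate carrier of acid surfaces, differed least in untreated db/db, by -0.02 (SE 0.16).

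Pdxk, pyridoxal kinase, makes the vitamin B6 cofactor that Cbs, Cth and Shmt1 use. It read 7.15 and 6.83 in mimic, 6.37 and 6.38 in control miRNA, 6.32 and 6.34 in untreated db/db, and 5.54 and 5.55 in normal kidney. The mimic samples lay above all others, and the control miRNA and untreated samples lay together between them and normal. Pdxk rose by 1.45 in mimic (SE 0.14, adjusted p = 0.00616 in limma) and by 0.79 in untreated db/db (SE 0.14, adjusted p = 0.0409), and differed by 0.83 in control miRNA (adjusted p = 0.0507). Its dimmer probe, A_55_P2176240, passed in none of these, with 0.84 in mimic, 0.15 in control miRNA and 0.22 in untreated db/db (SE 0.21 each), and mimic against control miRNA did not pass on either probe. It was the 1 gene of 9 that passed in the vitamin group.

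Of the serine and glycine group (9 listed genes, 8 measured), Gldc was the 1 that passed. Gldc is the decarboxylase of the mitochondrial glycine cleavage system, which feeds a carbon into folate. It read 5.91 and 4.85 in mimic, 4.43 and 4.39 in control miRNA, 4.84 and 4.49 in untreated db/db, and 3.45 and 2.86 in normal kidney. All db/db samples lay above both normal samples. Gldc rose by 2.22 in mimic (SE 0.37, adjusted p = 0.0247 in limma) and differed by 1.51 in untreated db/db (SE 0.37, adjusted p = 0.0742). A dim Gldc probe, not well above background on the normal arrays, also passed in mimic, higher than normal (adjusted p = 0.0346 in limma). It read -2.57 and -2.42 in mimic, -4.33 and -3.80 in control miRNA, -3.15 and -3.87 in untreated db/db, and -4.42 and -5.93 in normal kidney. No fold is given for it. Srr, serine racemase, differed least in untreated db/db, by 0.08 (SE 0.20).

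In the group of transsulfuration, cysteine and sulfide (10 genes measured, 15 probes) 2 genes passed in mimic, both lower than normal. Csad, which decarboxylates cysteine sulfinate on the way to taurine, read 3.85 and 4.55 in mimic, 4.55 and 4.75 in control miRNA, 4.54 and 4.63 in untreated db/db, and 5.31 and 5.58 in normal kidney. It fell by 1.24 in mimic (SE 0.24, adjusted p = 0.0379 in limma), where replicate 1, the sample with the low proximal tubule sum, lay lowest. Gclm, the regulatory subunit of the first enzyme of glutathione synthesis, was lower by 0.81 in mimic (SE 0.16, adjusted p = 0.0383 in limma). It read 4.70 and 4.74 in mimic, 4.49 and 4.83 in control miRNA, 4.65 and 4.82 in untreated db/db, and 5.43 and 5.63 in normal kidney. All db/db samples thus lay below both normal samples on Gclm, and the db/db groups overlapped. The medians over the brightest probes of the 10 genes were -0.65 in mimic, -0.51 in control miRNA and -0.38 in untreated db/db. Over the brightest probes of all genes the medians were -0.04, -0.01 and -0.006. No gene of the group passed in control miRNA or untreated db/db. In untreated db/db Csad differed most, by -0.86, and Suox, sulfite oxidase, least, by 0.17.

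In the methionine cycle group (8 genes measured, 19 probes) 1 probe rose and 1 fell in mimic, 1 fell in untreated db/db and 0 passed in control miRNA. Mtr, the folate-dependent methionine synthase, which does the work of Bhmt with another methyl donor, differed most in untreated db/db on brightest probes. Its difference there was -0.43 (SE 0.14, adjusted p = 0.129 in limma). Mat2b, the regulatory partner of Mat2a, differed least in untreated db/db, by 0.06 (SE 0.15). Mtrr, which keeps methionine synthase active, was higher than normal by 0.55 in mimic (SE 0.12, adjusted p = 0.0493 in limma). It read -0.28 and -0.39 in mimic, -0.57 and -0.43 in control miRNA, -0.47 and -0.43 in untreated db/db, and -0.83 and -0.93 in normal kidney. Probes of Ahcyl2, a relative of Ahcy, disagreed, and so did the db/db groups. The probe A_55_P2721374 fell by 0.85 in untreated db/db (SE 0.15, adjusted p = 0.0391 in limma), but differed by -0.18 in mimic and -0.14 in control miRNA. The brightest probe differed from normal by 0.08 in untreated db/db, 0.09 in control miRNA and -0.03 in mimic. Another Ahcyl2 probe, not well above background on the mimic arrays, passed in mimic, lower than normal (adjusted p = 0.0261 in limma). It read -4.37 and -4.53 in mimic, -4.03 and -3.97 in control miRNA, -3.48 and -3.68 in untreated db/db, and -3.73 and -3.56 in normal kidney. No fold is given for it.

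Of 5 methionine salvage genes, Enoph1 passed on a dim probe that was not well above background on the normal arrays. On that probe the fitted level was 1.60-fold higher in mimic and 1.72-fold higher in untreated db/db (adjusted p = 0.0474 and 0.0473 in limma). These folds rest on the dim normal readings and are not lower bounds. The brightest Enoph1 probe differed by 0.32 in mimic and 0.31 in untreated db/db and did not pass. In that group Apip differed most on brightest probes in untreated db/db, by 0.36, and Mtap least, by 0.23. In the choline and betaine group (6 genes, 12 probes) 0 probes passed in any contrast. Slc6a12, a betaine carrier and so a source of the substrate of Bhmt, differed most in untreated db/db, by 1.25 (SE 0.80, adjusted p = 0.370 in limma), with -2.50 and -0.59 in mimic, -0.70 and 0.93 in control miRNA, 0.78 and 0.58 in untreated db/db, and 0.06 and -1.21 in normal kidney. Its samples were spread widely in all groups except untreated db/db. Pipox, which oxidises sarcosine, the product of Dmgdh, differed least, by 0.02 (SE 0.30).

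**Figure D5:**
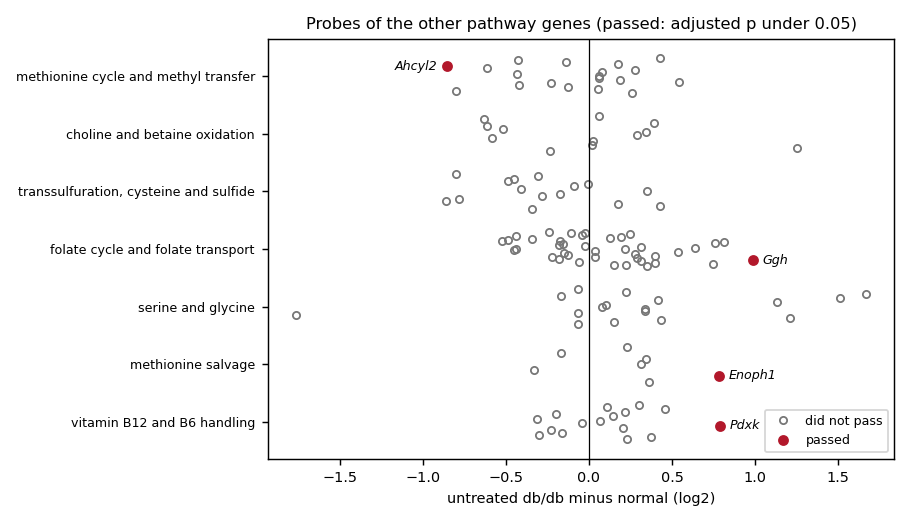
Untreated db/db minus normal on the log2 scale for the 126 probes of the other pathway genes, by group of the list. Filled points passed (limma, adjusted p under 0.05) and are named, with Ggh, Pdxk and Enoph1 right of 0 and Ahcyl2 left of it; open points did not pass, and the height within a group has no meaning.

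Other genes followed the Bhmt pattern over the samples. Over 19269 genes called above background in every sample, Pearson's r with the brightest Bhmt probe was highest for Plekha1 (0.982), Cadm4 (0.981), Heph (0.981), Atp6v1b1 (0.979) and Ncapd2 (0.978). The 2 normal samples stand apart from the 6 db/db samples on Bhmt, so these values reflect that gap in large part. Over the 6 db/db samples alone r was 0.925, 0.918, 0.884, 0.874 and 0.849 for the same genes. Plekha1, the first of them, read 3.64 and 3.91 in mimic, 3.85 and 3.59 in control miRNA, 3.91 and 3.94 in untreated db/db, and 3.27 and 2.80 in normal kidney, the same order of the samples within the mimic, control miRNA and normal groups as Bhmt. Of the other members, Shmt1 was most like Bhmt over all 8 samples (r = 0.902, and 0.468 over the 6 db/db samples). Mat2a was the least like it (r = -0.798 over 8 samples) yet had r = 0.830 over the 6 db/db samples. All these values share the same 8 arrays and are a description.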

How the data were processed

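Per the labels' protocols, RNA was isolated on RNeasy columns and 50 ng were labelled with Cy3 by the Low Input Quick Amp kit for 1-colour Agilent arrays. Agilent Feature Extraction 12.0.3.1 is named in the submitters' processing notes. The deposited scanner files hold the intensity of each spot after background subtraction, per the file headers. The deposited series table holds a ratio per probe, linear and centred per probe, of unstated scaling; its direction and scale were found by comparison with the scanner values (r over 0.99999 per array), and its column medians were 0.971 to 1.08.

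Each array had 59305 non-control spots. Spots of a probe were averaged, 4 probes with outlier calls were dropped, intensities were divided by the array's 75th percentile and put on the log2 scale. Groups were fitted with limma 3.58.1 in R 4.3.3 (lmFit, eBayes) over all 8 arrays, leaving 4 residual degrees of freedom; the procedure was tested on simulated data. The members, gene lists and tests were chosen with earlier results of these data known. Named pathway genes are those with a probe that passed in any of 6 contrasts and, per group of the list, those whose brightest probe differed most and least between untreated db/db and normal; 1 of these is not reported here. Replicate numbers do not pair samples: deviations of same-numbered samples correlated at -0.03 to 0.16. The number of arrays limits the precision. Gene names are those of the array files, coordinates mm9; no genome was used. Sequences before gene starts and of the miRNA are from RefSeq, GRCm38.p6. Alternatives were the background correction, normalization, filter, probe choice, series table, compared groups, replicate block and single arrays left out.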

Additional observations from a re-analysis of the deposited data

How the results depend on the processing

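Of 1224 member differences under alternatives, 37 changed sign, and 0 of these passed in either fit. Member probes that passed in mimic against normal numbered 4, with 2 without the filter on dim probes, 0 with only the compared groups fitted and 0 to 8 with 1 array left out. In control miRNA against normal 0 passed, but 5 did under normexp background correction, 2 among probes well above background on all arrays, 1 under quantile normalization, 1 with only the compared groups fitted and 0 to 7 with 1 array left out. In untreated db/db against normal 3 passed, with 5 under normexp, 0 without the filter and 0 to 7 with 1 array left out. Leaving out 1 array gave 0 to 1 member probes in mimic against control miRNA and 0 to 3 in mimic against untreated db/db. Other pathway probes in mimic against normal numbered 10, with 6 at 1 probe per gene, 17 under normexp, 0 with only the compared groups fitted, 3 without the filter and 1 to 33 with 1 array left out. In control miRNA against normal 1 passed, with 2 at 1 probe per gene, 7 under normexp, 2 under quantile normalization, 3 among probes well above background on all arrays, 0 without the filter and 0 to 15 with 1 array left out. In untreated db/db against normal 4 passed, with 2 at 1 probe per gene, 15 under normexp, 13 with only the compared groups fitted, 7 under quantile normalization, 1 without the filter and 0 to 21 with 1 array left out. Leaving out 1 array gave 0 to 18 in mimic against control miRNA and 0 to 24 in mimic against untreated db/db. The cause of these shifts was not tested, except that the fits with and without the filter adjust over 33639 and 56601 probes. The share of all probes that passed moved too. In mimic against normal it was 7.37%, with 9.34% under normexp, 2.2% without the filter and 0.113% with only the compared groups fitted. In control miRNA against normal it was 1.51%, with 5.35% under normexp and 1.99% under quantile normalization. There it was 2.35% among probes well above background on all arrays, 2.75% with only the compared groups fitted and 0.247% without the filter. In untreated db/db against normal that share was 3.84%, with 10.6% under normexp and 4.36% under quantile normalization. It was 0.562% without the filter and 9.31% with only the compared groups fitted. At 1 probe per gene the shares were 8.27% in mimic, 1.72% in control miRNA and 3.35% in untreated db/db against normal. Samples share only a replicate number. With the number as a replicate block, member probes that passed were 3 in mimic, 0 in control miRNA and 2 in untreated db/db against normal. Other pathway probes that passed were 8, 0 and 1, beside 5.58%, 0.69% and 2.02% of all probes. The split of all probes that passed changed with the normalization: 922 higher and 1556 lower in mimic, 193 and 315 in control miRNA, and 480 and 812 in untreated db/db against normal, with 1112 and 1099, 325 and 346, and 737 and 731 under quantile normalization.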

Other observations

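The mimic samples also differed from each other in some pathway genes, picked after their values were seen. These were Psat1 and Phgdh, of the serine branch that feeds Cbs and Shmt1, and Gamt, of the methionine cycle group. Psat1, the aminotransferase of serine synthesis, read 5.18 and 2.29 in mimic, 2.01 and 1.89 in control miRNA, 2.11 and 2.09 in untreated db/db, and 2.23 and 1.76 in normal kidney, and its dimmer probe read 0.25 and -2.21 in mimic, against -2.74 to -2.31 elsewhere. Phgdh, the first enzyme of that synthesis, went the other way on the same array, with 1.60 and 3.15 in mimic, 3.18 and 2.95 in control miRNA, 3.27 and 3.09 in untreated db/db, and 2.26 and 1.68 in normal kidney. Gamt, which makes creatine with S-adenosylmethionine, read 0.97 and 3.12 in mimic, 3.08 and 2.36 in control miRNA, 2.87 and 2.98 in untreated db/db, and 2.97 and 3.14 in normal kidney. Of the 126 other pathway probes, 15 were more than 2-fold apart between the mimic samples, 8 of them higher in replicate 1 and 7 lower, against 1 in control miRNA, 0 in untreated db/db and 5 in normal kidney. That is 11.9% of them in mimic, near the 10.3% of all probes. None of these 3 genes passed in any contrast (limma, adjusted over all probes), and which of the mimic samples is typical of the treatment was not tested.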
